A study of Mus musculus with 3 samples.

Results

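Among the single cells of mouse mammary tumours cultured in collagen I or Matrigel, 197 myoepithelial-like cells were studied, of 7620 cells in all and of 6618 culture cells with at least 5000 UMIs, the molecule counts of this assay. A culture cell was a member if it had at least 1 UMI of the basal keratin Krt5, at least 2 of the 3 contractile genes Acta2, Tagln and Cnn1, a sum of these 3 of at least 5 UMIs per 10000 UMIs of the cell, and fewer than 5 UMIs of Col1a1 plus Col3a1 per 10000. The levels of these 6 genes chose the cells and are given as a description, without a test. Primary tumour cells came from C3(1)-Tag mice of the FVB strain, 25 to 30 weeks old with tumours of 20 mm, in which the C3(1) promoter drives a viral large T antigen in mammary epithelium. Cells of 4 mice, freshly isolated and not passaged, were plated as organoids in collagen I (Collagen) or as clusters in Matrigel, an extract of basement membrane that is rich in laminin, both in DMEM/F12 with ITS and 2.5 nM FGF2. Each of the 3 samples is a pool of both matrices and of the mice present on 1 day: day 0 (12 h after plating), day 3 and day 5. Cells of 4T1, an established mouse mammary carcinoma line grown on plastic with serum, were added to each pool. The pools of days 0, 3 and 5 held 2961, 3463 and 1196 cells with medians of 16177, 38122 and 55453.5 UMIs. The replicate is the mouse. Day, pool and sequencing batch cannot be told apart, and the same holds for the matrix and the way cells were released from it, collagenase for Collagen and EDTA on ice for Matrigel.

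Myoepithelial cells form the outer, basal layer of mammary ducts and alveoli, next to the basement membrane. They carry basal keratins and hemidesmosomes as skin keratinocytes do, and actin and myosin of the smooth muscle kind, with which they contract on oxytocin and eject milk. Smooth muscle genes are classical targets of serum response factor (SRF), which binds the CArG box, and p63, encoded by Trp63, maintains the basal state. In the normal gland these cells express signals for the luminal layer and deposit basement membrane.

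The windows below, from RefSeq (GRCm38.p6), run from 250 bases before to 50 bases after the annotated start of 3 contractile genes, 2 of which were part of the rule. They are shown because these genes define the cells and the CArG box is their best known control element. Capitals mark CArG boxes (CC, a core of 6 bases that are all A or T, then GG) and CArG-like runs, in which exactly 1 base of that core is C or G. Both patterns read alike on both strands and do not overlap each other in these windows.
Acta2, smooth muscle alpha-actin, chr19:34255324-34255623, minus strand: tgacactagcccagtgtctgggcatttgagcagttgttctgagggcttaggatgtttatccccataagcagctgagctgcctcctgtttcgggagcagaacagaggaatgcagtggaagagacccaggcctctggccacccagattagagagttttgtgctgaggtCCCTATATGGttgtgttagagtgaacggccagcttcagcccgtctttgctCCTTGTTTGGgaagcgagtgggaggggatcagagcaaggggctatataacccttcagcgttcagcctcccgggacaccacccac
Cnn1, calponin, chr9:22099003-22099302, plus strand: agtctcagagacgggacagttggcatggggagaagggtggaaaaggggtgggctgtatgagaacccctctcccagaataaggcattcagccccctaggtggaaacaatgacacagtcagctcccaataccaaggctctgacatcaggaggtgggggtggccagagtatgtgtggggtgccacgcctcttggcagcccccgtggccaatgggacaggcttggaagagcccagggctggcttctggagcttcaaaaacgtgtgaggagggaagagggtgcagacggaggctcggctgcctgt
Myl9, the myosin regulatory light chain of smooth muscle, chr2:156775214-156775513, plus strand: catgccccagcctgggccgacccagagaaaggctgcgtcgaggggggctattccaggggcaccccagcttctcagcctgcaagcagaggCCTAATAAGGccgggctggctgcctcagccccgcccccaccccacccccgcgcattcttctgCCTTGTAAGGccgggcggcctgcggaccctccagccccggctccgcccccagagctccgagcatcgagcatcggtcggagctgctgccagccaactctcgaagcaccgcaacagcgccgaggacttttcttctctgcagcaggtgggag
Acta2 held 2 CArG-like runs and no CArG box, Myl9 held 1 of each, and Cnn1 held neither. Of 20 contractile genes, 16 had a window, and 2 of these held a CArG box (Myl9 and Vcl). Over all 32851 windows of this length, 1.63% held a CArG box and 8.50% held a CArG-like run. A match describes the letters of the window and says nothing about binding. Tagln, Myh11 and Actg2 were among those with no entry.

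Of the 6618 culture cells, 1145 had a Krt5 UMI and 228 met the contractile criterion, and 199 met both. The collagen criterion removed 2 of these. Contractile cells without a Krt5 UMI numbered 29, and 17 of them had collagen levels over the limit, so that most contractile cells in these cultures were also Krt5 cells. Conversely, 937 Epcam-positive cells with a Krt5 UMI did not meet the contractile criterion. None of the 313 cells of the 4T1 line met the gene criteria, which allows a share of up to 0.958%. Among members, 161 had UMIs of all 3 contractile genes and 194 had a UMI of Epcam, an epithelial adhesion molecule. Of 11 cell barcodes that occurred in 2 pools, none was that of a member. In addition, 2 cells with fewer than 5000 UMIs met every other criterion and were left out.

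The contractile sum of members ran from 5.09 to 275 UMIs per 10000, with a median of 52.1, and 48 members had at least 100. The 5 members nearest to the threshold had 5.09, 5.19, 5.28, 5.37 and 6.07 UMIs per 10000, and the 5 Krt5 cells nearest below it had 4.72, 4.50, 4.32, 4.15 and 3.80. There were 17 members between 5 and 10 and 37 Krt5 cells with 2 or 3 contractile genes below the threshold, so the cut runs through a thin range of cells and not through a gap. Krt5 itself had a median of 28.7 UMIs per 10000 in members, with a range of 0.266 to 103. The median contractile sum was 45.3, 51.4 and 83.4 per 10000 in members of mice 1, 2 and 3. By day it was 21.9, 56.6 and 43.7 per 10000 on days 0, 3 and 5, and it was 55.2 in the 190 Collagen members and 12.1 in the 7 Matrigel members. The Matrigel members ran from 5.37 to 53.4 per 10000. They came from days 0 and 3 and none from day 5, so the members of the 2 matrices also differed in their days. Pooled over mice and days, members had a median of 34627 UMIs per cell against 33957 in the other 6109 Epcam-positive cells. Within the cultures that held members, the depth differed by mouse. Medians were 24966 in members against 31451.5 in the other Epcam-positive cells of mouse 1, 36674 against 35790 in mouse 2 and 50059 against 42401 in mouse 3.

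**Figure D1:**
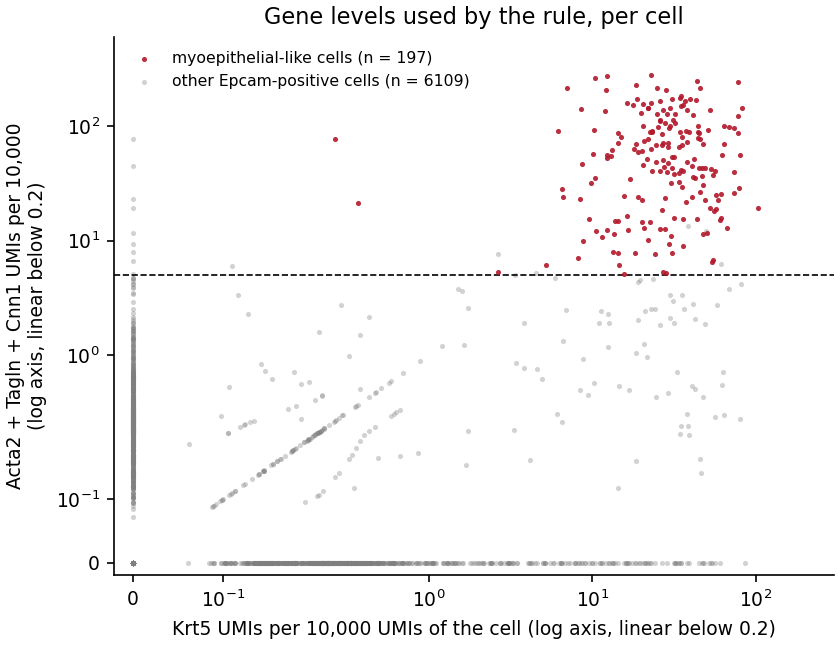
Krt5 level (x axis) against the summed level of Acta2, Tagln and Cnn1 (y axis), both in UMIs per 10000 UMIs of the cell on log axes that are linear near 0, for 197 myoepithelial-like cells (red) and 6109 other Epcam-positive cells (grey); the dashed line is the threshold of 5. Members form a cloud around 28.7 for Krt5 and 52.1 for the contractile sum, with 17 cells just above the line.

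The members came mainly from mouse 2 and from collagen. Mice 1, 2, 3 and 4 gave 43, 137, 16 and 1 of them, and days 0, 3 and 5 gave 17, 131 and 49. Since a deeper cell has more chances to show the rule's genes, shares were counted after each cell was thinned to 5000 UMIs. In Collagen on day 0, the share among Epcam-positive cells was 2.76% and 2.01% in mice 1 and 2, and 0 of 132 and 0 of 98 cells in mice 3 and 4, which allows up to 2.27% and 3.06%. In Matrigel on day 0 it was 0.309% and 0.685% in mice 1 and 2, and 0 of 346 and 0 of 395 cells in mice 3 and 4, which allows up to 0.867% and 0.759%. Mice 1 and 2 held the members in both matrices on that day.

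In Collagen on day 3 the share was 6.22% in mouse 1, 7.91% in mouse 2, 0.950% in mouse 3 and 0.926% in mouse 4. In Matrigel on day 3 it was 2.33% in mouse 1, where it rests on 1 of 43 cells, and 0 of 140, 97 and 354 cells in mice 2, 3 and 4, which allows up to 2.14%, 3.09% and 0.847%. Within each of the 4 mice the Collagen value was the higher one, although the values of the 2 matrices overlapped across mice. In Collagen on day 5 the share was 6.33%, 10.1% and 1.31% in mice 1, 2 and 3 (exact 95% intervals 2.09 to 14.2%, 6.99 to 14.1% and 0.529 to 2.68%, which cover counting error only). In Matrigel on day 5 no member was found among 48 cells of mouse 2 and 35 cells of mouse 3, which allows up to 6.25% and 8.57%. Mouse 1 had only 12 Matrigel cells on day 5, too few for a share, and mouse 4 was not analysed here on day 5.

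The mean share was 1.19 ± 1.41% in Collagen and 0.248 ± 0.325% in Matrigel on day 0 (SD, n = 4 mice each; exact two-sided permutation test, p = 0.429, adjusted p = 0.429 over 3 days). On day 3 it was 4.00 ± 3.60% in Collagen and 0.581 ± 1.16% in Matrigel (SD, n = 4 mice each; exact two-sided permutation test, p = 0.171, adjusted p = 0.3). On day 5 it was 5.92 ± 4.42% in Collagen (SD, n = 3) and 0% in both Matrigel cultures (exact permutation p = 0.2, the smallest this design allows, adjusted p = 0.3). The test passed on no day, and on day 5 it could not have passed, since the smallest p it allows is 0.2. With the matrices paired by mouse, Collagen was higher in 2 of 4 mice on day 0 and equal in the others, in 4 of 4 on day 3 and in 2 of 2 on day 5 (exact permutation p = 0.5, 0.125 and 0.5), and on days 3 and 5 these are the smallest p that 4 and 2 pairs allow. A stricter gate asked for all 3 contractile genes and for a sum of at least 10 in place of 5 per 10000. With it, the day 3 difference was 2.17 percentage points (exact permutation p = 0.0286, the smallest that 4 against 4 mice allow). Unlike those above, this p was not adjusted over the 3 days, and paired by mouse it was 0.125 (exact permutation). Without thinning, 190 of 4159 Epcam-positive Collagen cells and 7 of 2147 Matrigel cells were members, and on day 3 the share was higher in Collagen in 3 of 4 mice.

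**Figure D2:**
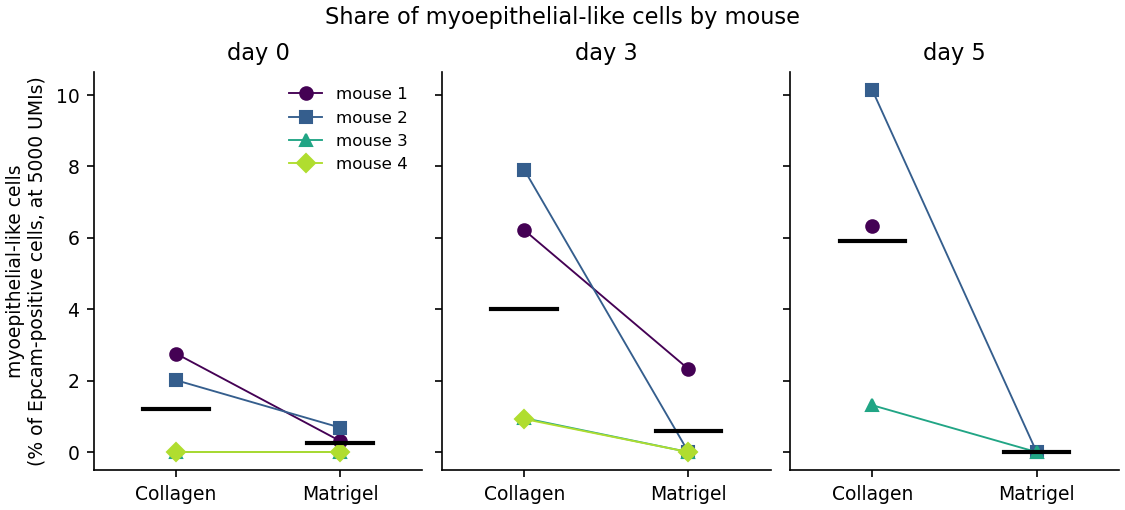
Share of myoepithelial-like cells among Epcam-positive cells thinned to 5000 UMIs (y axis, percent) in Collagen and Matrigel (x axis) on days 0, 3 and 5, with 1 point per mouse, a line joining the matrices of a mouse and a black bar for the mean. On days 3 and 5 mice 1 and 2 reach 6.22% to 10.1% in Collagen, while mice 3 and 4 stay at or under 1.31%.

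To describe what else the cells expressed, each member was paired with 1 other Epcam-positive cell of the same mouse, matrix and day with the nearest UMI total. UMIs were summed per mouse over members and over matched others, and compared with edgeR's quasi-likelihood test with the mouse as a block. Mice 1, 2 and 3 entered with 43, 137 and 16 pairs, and mouse 4, with 1 member, did not. UMI totals within a pair differed by at most 1.15-fold. Of 9043 genes tested, 18.9% were higher and 16% lower in members, 34.9% in all, at a Benjamini-Hochberg adjusted p under 0.05, and the median log2 fold change of all genes was -0.02. Levels below are in CPM, a gene's UMIs scaled to the same effective total for every sum, and folds are on the log2 scale, members over matched others. Members were picked by their expression, so a called gene is one that went along with the rule's genes from cell to cell. Median mitochondrial shares were 4.92%, 5.15% and 5.99% of UMIs in members of mice 1, 2 and 3, against 3.83%, 4.58% and 4.67% in matched others, and the part of this in the results was not tested.

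The genes of the rule show how far apart the 2 classes are. Acta2 had 4251, 5097 and 4477 CPM in members of mice 1, 2 and 3, against 0.687, 1.42 and 1.10 CPM in matched others. Tagln, the actin-binding protein transgelin, had 1987, 3156 and 2562 CPM in members, against 0, 2.21 and 2.20 CPM. Cnn1 had 196, 286 and 333 CPM in members, against 2.06, 2.84 and 0 CPM. Krt5 had 4313, 3974 and 3971 CPM in members, against 144, 19.5 and 4.40 CPM in matched others. Epcam was much closer between the classes, at 1165, 1031 and 931 CPM in members against 1401, 1378 and 1035 CPM. Matched others had to have an Epcam UMI and members did not, so these Epcam levels are in part set by the choice of cells.

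Another 3 markers of the cells were not part of the rule. They had been picked for their pattern in these same data, so their values describe the members, are given with no test and are no independent check of the label. Myl9 (chromosome 2, 156775420 to 156781658, GRCm38) had 496, 564 and 632 CPM in members of mice 1, 2 and 3, against 0.687, 6.15 and 0 CPM in matched others, a log2 fold change of 7.18. Il17b, an interleukin 17 family cytokine, had 434, 510 and 562 CPM in members, against 8.24, 4.73 and 6.61 CPM (6.39). Col17a1, the collagen of hemidesmosomes (chromosome 19, 47646344 to 47692094), had 330, 299 and 292 CPM in members, against 16.5, 4.57 and 5.50 CPM (5.34). For each of them the lowest member value lay far above the highest matched value. At 5000 UMIs a cell, Myl9 was seen in 71.6% of members and 1.02% of matched others, Il17b in 77.2% and 1.52%, and Col17a1 in 67.0% and 5.08%. None of the 3 was seen in 128 immune marker cells of the same pools, cells that should lack them, which allows up to 2.34%, at a median depth of 15077.5 UMIs before thinning. Levels of the large T antigen were not analysed here, so the tumour origin of the cells rests on the cultures they came from.

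Beyond the rule's genes, the contractile genes that could be tested were higher. Of 20 contractile genes, 3 were part of the rule and 2 (Synpo2 and Des) did not pass the filter on low counts. All 15 genes tested rose, with a median log2 fold change of 2.23 against -0.02 over all genes, and under each alternative at least 15 rose and none fell. Myl9, which was picked for its pattern in these same data, is 1 of the 15. With no filter on low counts 16 of 17 rose. Myh11, the smooth muscle myosin heavy chain (chromosome 16, 14194535 to 14291372), had 201, 190 and 151 CPM in members of mice 1, 2 and 3, against 0, 0.473 and 0 CPM in matched others. This is 1311 UMIs in members against 3 in matched others, a ratio of 545 (exact 95% interval 186 to 2644, counting error only; edgeR adjusted p = 6.44e-07). Actg2, the smooth muscle gamma-actin, had 72.0, 214 and 142 CPM in members, against 0, 0.158 and 0 CPM (1274 UMIs against 1, ratio 1588, interval 284 to 62753). Members of mouse 1 had the lowest Actg2 level and members of mouse 2 the highest.

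Mylk, the kinase that activates smooth muscle myosin, had 137, 116 and 126 CPM in members, against 4.81, 5.20 and 0 CPM. Lmod1, which nucleates actin filaments in smooth muscle, had 59.3, 54.2 and 47.8 CPM in members, against 0, 0.473 and 0 CPM. Genes that many epithelial cells also use moved less. The tropomyosin Tpm2 had 1982, 1774 and 1625 CPM in members against 186, 221 and 61.6 CPM in matched others, and caldesmon, Cald1, had a log2 fold change of 2.00. The actin crosslinkers Actn1 and Flna had log2 fold changes of 1.11 and 0.97. Another list held Srf, its cofactor genes, Tead1 and Nexn, and 3 of its 5 genes tested rose. They were Nexn, an actin-binding protein of muscle (66.9, 85.1 and 61.1 CPM in members against 1.37, 1.42 and 0 CPM), Tead1 (log2 fold change 1.01) and Srf itself (1.07, 20.3, 37.6 and 31.9 CPM against 13.7, 18.8 and 7.71 CPM). Srf did not pass with DESeq2 (adjusted p = 0.0636), and without mouse 2 neither Srf (0.122) nor Tead1 (0.0607) passed. Without mouse 2 Nexn was thus the 1 gene of the 5 that rose. The SRF cofactor genes Mkl1 and Mkl2 did not pass (0.29 and -0.01), and Myocd was below the filter.

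**Figure D3:**
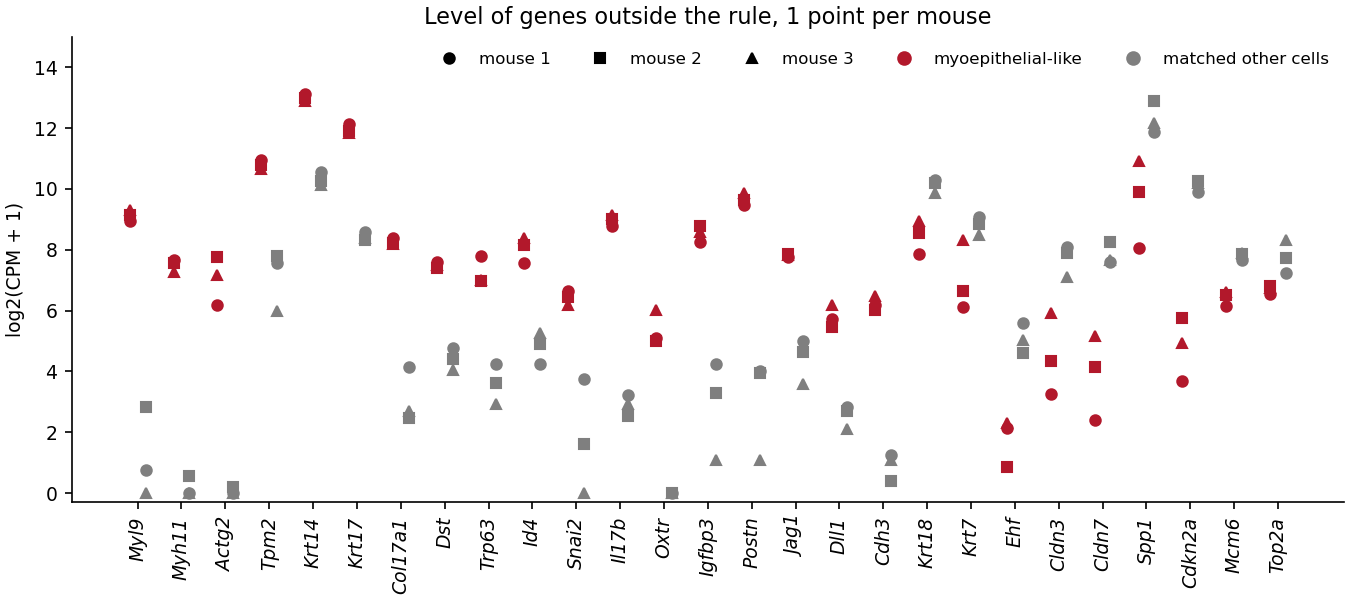
Level of genes outside the rule, as log2(CPM + 1) (y axis), in myoepithelial-like cells (red) and matched other cells (grey) of mice 1, 2 and 3 (circle, square, triangle). From Myl9 to Cdh3 every red point lies above every grey one, and from Krt18 to Top2a every red point lies below every grey one.

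Keratins separated the classes in both directions. Of 4 basal keratins tested, 3 rose. Krt14, the partner of keratin 5 (chromosome 11, 100203162 to 100207548), had 8854, 8171 and 7609 CPM in members of mice 1, 2 and 3, against 1518, 1224 and 1121 CPM in matched others (log2 fold change 2.68, SE 0.12, edgeR adjusted p = 1.5e-06). Krt17 had 4480, 3862 and 3635 CPM in members against 380, 318 and 332 CPM (3.54). Krt6a rose by 2.55, while Krt16 did not pass (-0.03). Since Krt14 was seen in 75.6% of matched others as well as in 99.0% of members at 5000 UMIs, it marked members by amount more than by presence. All 4 luminal keratins fell, with log2 fold changes of -3.12 for Krt19, -1.79 for Krt7, -1.66 for Krt18 and -0.49 for Krt8. Krt18 had 229, 375 and 495 CPM in members against 1246, 1177 and 926 CPM, and Krt8 had 498, 537 and 516 CPM against 709, 861 and 618 CPM. Both simple keratins thus stayed well above 0 in members. Without mouse 2, Krt8 (adjusted p = 0.131) and Krt7 (0.0989) did not pass, and Krt7 did not pass with DESeq2 (0.0581).

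Of 9 transcription factors of the basal lineage tested, 6 rose and 1 fell. Trp63 (chromosome 16, 25683763 to 25892102) had 219, 125 and 127 CPM in members of mice 1, 2 and 3, against 17.9, 11.2 and 6.61 CPM in matched others (log2 fold change 3.65, SE 0.20, edgeR adjusted p = 2.79e-06). Snai2, a zinc finger repressor of the basal mammary lineage, had 99.1, 86.2 and 71.7 CPM in members against 12.4, 2.05 and 0 CPM (4.47). Id4, an inhibitor of bHLH factors found in basal mammary cells, had 188, 281 and 332 CPM in members against 17.9, 29.0 and 37.4 CPM (3.27). Bcl11b (2.60), Sox9 (0.80) and Sox10 (0.80) were the other 3 that rose, and Foxc1, a forkhead factor, fell by 1.48 on the log2 scale. Sox9 did not pass without mouse 2 (adjusted p = 0.0734), and Sox10 did not pass under 3 of 16 alternatives (adjusted p up to 0.137). Of 4 luminal factors tested, Ehf (3.39, 0.791 and 3.98 CPM in members against 46.7, 23.3 and 31.9 CPM) and Elf3 (1.69, 1.38 and 2.66 CPM against 25.4, 16.5 and 11 CPM) fell, and Gata3 and Grhl2 did not pass. Esr1, Pgr and Foxa1, of the hormone receptor lineage, and Elf5, a factor of the alveolar lineage, were below the filter. Among 7 luminal secretory and surface genes tested (without mouse 3, 3 of 10 rose and 7 fell), 5 fell, among them the retinal dehydrogenase Aldh1a3 (log2 fold change -3.79) and the prolactin receptor Prlr (-3.49), and 2 rose, Cd24a (0.92) and Lcn2 (0.69). Lcn2, lipocalin 2, had 2556, 893 and 828 CPM in members against 1179, 539 and 727 CPM, and it did not pass under 6 of 16 alternatives.

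Genes by which basal cells hold on to the basement membrane were higher as a group. Of 13 hemidesmosome and integrin genes tested, 10 rose and none fell, with a median log2 fold change of 0.95. Col17a1, picked for its pattern in these same data, is 1 of the 10. Without the scaling of totals, 8 rose and 3 fell, and in day 3 cells alone 7 rose and 2 fell. Of the 10, Plec and Itga3 did not pass under 9 and 5 of 16 alternatives (adjusted p up to 0.644 and 0.543). After Col17a1, dystonin (Dst), which links keratin filaments to the hemidesmosome, was next: it had 193, 168 and 178 CPM in members of mice 1, 2 and 3, against 26.1, 20.3 and 15.4 CPM in matched others (3.10, SE 0.18, edgeR adjusted p = 3.58e-06). The laminin receptor subunits Itgb4 and Itga6 rose by 1.85 and 1.64, and Itgb1, the beta chain of many integrins, by 0.95. Itga2, part of a collagen receptor, did not pass (-0.32), nor did Cd44 (-0.21) and Cd9 (-0.26).

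Of 14 basement membrane genes tested, 10 rose and 1 fell. Sparc, a collagen-binding matrix protein, had 1333, 1278 and 1463 CPM in members of mice 1, 2 and 3, against 76.9, 214 and 141 CPM in matched others (log2 fold change 3.31). The type IV collagen genes Col4a1 (61.8, 43.3 and 22.6 CPM in members against 0.687, 5.52 and 1.10 CPM) and Col4a2 (38.1, 28.1 and 21.2 CPM against 0.687, 4.10 and 1.10 CPM) rose, as did Col7a1, the anchoring fibril collagen (2.57). The laminin chains Lama3 and Lamb3 rose by 1.20 and 0.67, and Lamb3 did not pass without mouse 2 (adjusted p = 0.0992) or in day 3 cells alone (0.11). Lama5, a chain of other laminins, fell by 0.74 on the log2 scale, a call that was lost under 5 of 16 alternatives (adjusted p up to 0.167), among them DESeq2 and the fits without mouse 1 and without mouse 2. Lamb1 and Lamc1 did not pass. Without the scaling of totals, 8 of the 14 rose and 2 fell.

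Of 13 receptor and ligand genes of myoepithelial cells tested, 10 rose and 2 fell, with a median log2 fold change of 2.22. Il17b, picked for its pattern in these same data, is 1 of the 10. Oxtr, the oxytocin receptor (chromosome 6, 112473683 to 112489943), had 33.0, 30.7 and 63.7 CPM in members of mice 1, 2 and 3 and no UMI in matched others, which is at least 101-fold higher when 3 counts over the matched group are taken as the limit (edgeR adjusted p = 2.82e-05). At 5000 UMIs a cell, 19.8% of members and 0 of 197 matched others had an Oxtr UMI, and a count of 0 among 197 allows up to 1.52%. Nrg1, an ERBB receptor ligand, had 55.0, 61.5 and 57.1 CPM in members against 2.06, 1.26 and 1.10 CPM (5.37). The binding protein Igfbp3 had 306, 442 and 385 CPM in members against 17.9, 8.67 and 1.10 CPM (5.34), and Bmp7 rose by 4.39. Fst, which binds activin, had 466, 919 and 685 CPM in members against 159, 362 and 187 CPM (1.57). Inhba, which encodes a subunit of activin A, went the other way, with 49.1, 103 and 118 CPM in members against 334, 541 and 489 CPM (-2.39, SE 0.15, adjusted p = 6.17e-06).

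The Notch pathway passes signals between touching cells. Of 7 Notch genes tested, 4 rose and 2 fell (3 and 1 without mouse 2). The ligand Jag1 had 215, 230 and 226 CPM in members of mice 1, 2 and 3, against 30.9, 24.0 and 11 CPM in matched others (log2 fold change 3.31, SE 0.23, edgeR adjusted p = 9.77e-06). The ligands Dll1 (3.20) and Jag2 (1.86) rose as well, as did the target Hes1 (1.08), which did not pass without mouse 2 (adjusted p = 0.155) or without the scaling of totals (0.0904). The feedback target Nrarp fell by 1.82 on the log2 scale and Notch1 did not pass (0.14). The receptor Notch2 was the other gene that fell, a call lost under 9 of 16 alternatives (adjusted p up to 0.197). At 5000 UMIs Jag1 was seen in 53.8% of members, 14.2% of matched others and 21.1% of immune marker cells.

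Of 14 Wnt genes tested, 6 rose and 1 fell (9 and 2 of 17 without mouse 3), against 18.9% and 16% of all genes tested. The Wnt inhibitor Wif1 had 22, 30.7 and 57.1 CPM in members of mice 1, 2 and 3, against 0.687, 0.158 and 0 CPM in matched others (224 UMIs against 2, ratio 140, exact 95% interval 38.2 to 1160, counting error only; edgeR adjusted p = 1.05e-05). Lgr5, an R-spondin receptor, had 16.1, 34.8 and 33.2 CPM in members against 2.06, 0.788 and 0 CPM. Wnt5a (log2 fold change 4.46), the antagonist Sfrp1 (2.42), Wnt4 (2.05) and the receptor Fzd7 (0.88, not past the threshold under 4 of 16 alternatives) were the others that rose. Wnt7b fell by 3.93 on the log2 scale, with 4.23, 4.35 and 3.98 CPM in members against 56.3, 69.3 and 65.0 CPM. The Wnt target Axin2 and the factor Lef1 were below the filter.

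TGF-beta and YAP target genes did not move one way: 4 of 13 rose and 3 fell, and without mouse 2, 5 of 14 rose and none fell. Postn, periostin, a matrix protein best known from stroma (chromosome 3, 54361109 to 54391037), had 713, 788 and 931 CPM in members of mice 1, 2 and 3, against 15.1, 14.5 and 1.10 CPM in matched others (log2 fold change 6.06, SE 0.35, edgeR adjusted p = 3.58e-06). Ctgf had 256, 308 and 320 CPM in members against 38.5, 22.4 and 33.0 CPM (3.31), whereas Cyr61, its close relative, did not pass (0.76). Ankrd1, another YAP target, fell (-1.78), and so did the inhibitor Smad7 (-0.71). Neither passed without mouse 2 (adjusted p = 0.443 and 0.0541), and Ankrd1 did not pass under 5 of 16 alternatives in all.

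Mesenchymal genes split as well, with 6 of 13 higher and 6 lower (6 and 3 without mouse 2). Vim, the intermediate filament vimentin, had 849, 1089 and 994 CPM in members of mice 1, 2 and 3, against 483, 532 and 373 CPM in matched others (log2 fold change 1.08). N-cadherin, Cdh2, rose by 4.22 (38.1, 56.8 and 41.2 CPM in members against 6.18, 2.05 and 0 CPM), and fibrillin, Fbn1, by 2.74. Of the EMT factors in this list, Twist1 (0, 5.14 and 0 CPM in members against 19.2, 83.7 and 14.3 CPM, -4.21), Zeb2 (-3.40) and Snai1 (-1.44) fell, and Zeb1 was below the filter. Fibronectin, Fn1, fell too (-0.71), while Snai2, counted above among the basal factors, rose. Without mouse 2 neither Snai1 (adjusted p = 0.143) nor Fn1 (0.0731) passed, and Fn1 did not pass under 4 of 16 alternatives in all. Spp1, osteopontin, had 267, 949 and 1914 CPM in members against 3741, 7601 and 4631 CPM (-2.70, SE 0.39, edgeR adjusted p = 0.000717). Within members Spp1 was lowest in mouse 1 and highest in mouse 3, and the member values stayed below all matched ones.

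Cell junction genes went both ways, 5 of 15 higher and 5 lower (5 and 3 without mouse 2). P-cadherin, Cdh3, the cadherin of basal layers, had 72.0, 64.5 and 87.6 CPM in members of mice 1, 2 and 3, against 1.37, 0.315 and 1.10 CPM in matched others (log2 fold change 6.74, SE 0.34, edgeR adjusted p = 2.2e-06). E-cadherin, Cdh1, did not pass (0.39). The desmosome genes Dsp (1.94), Jup (1.43), Pkp3 (1.44) and Pkp1 (0.78) rose and Dsc2 fell (-1.51). The tight junction claudins Cldn1 (-3.96), Cldn7 (-3.89), Cldn3 (-3.17) and Cldn4 (-2.39) fell. Cldn4 did not pass under 4 of 16 alternatives (adjusted p up to 0.39), Dsc2 did not pass with DESeq2 (0.0584) or without mouse 2 (0.0543), and Pkp1 did not pass in day 3 cells alone (0.325). Cldn3 had 8.47, 19.2 and 59.7 CPM in members against 269, 238 and 138 CPM, and at 5000 UMIs it was seen in 3.55% of members and 59.4% of matched others.

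Proliferation genes were lower in members. Of 18 genes of G2 and mitosis, none rose and 11 fell, with a median log2 fold change of -0.71, and 17 of the 18 were lower in each of the 3 mice. Under the alternatives none of the 18 rose, and the number that fell depended on the setting. It was 7 in day 3 cells alone, 8 without the mouse as a block, 9 with DESeq2 and 16 without the scaling of totals. Of 16 S phase genes, none rose and 12 fell, with a median of -0.99. Mcm6, a subunit of the replicative helicase, had 69.4, 89.4 and 95.6 CPM in members of mice 1, 2 and 3, against 199, 229 and 234 CPM in matched others (-1.39, SE 0.13, edgeR adjusted p = 5.68e-05). Top2a, topoisomerase II alpha, had 91.4, 112 and 106 CPM in members against 150, 209 and 317 CPM (-1.05, SE 0.17, adjusted p = 0.0014). At 5000 UMIs a cell, Top2a was seen in 17.3% of members and 41.1% of matched others, and Mki67 in 13.7% and 27.9%. Without mouse 2 the fall of Mki67 did not pass (adjusted p = 0.0756). In immune marker cells these shares were 1.56% and 4.69%, at a lower depth before thinning. Rrm2 and Ccne1 did not pass (-0.13 and -0.01). Against matched cells that also had a Krt5 UMI, 9 of the 18 and 12 of the 16 fell.

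**Figure D4:**
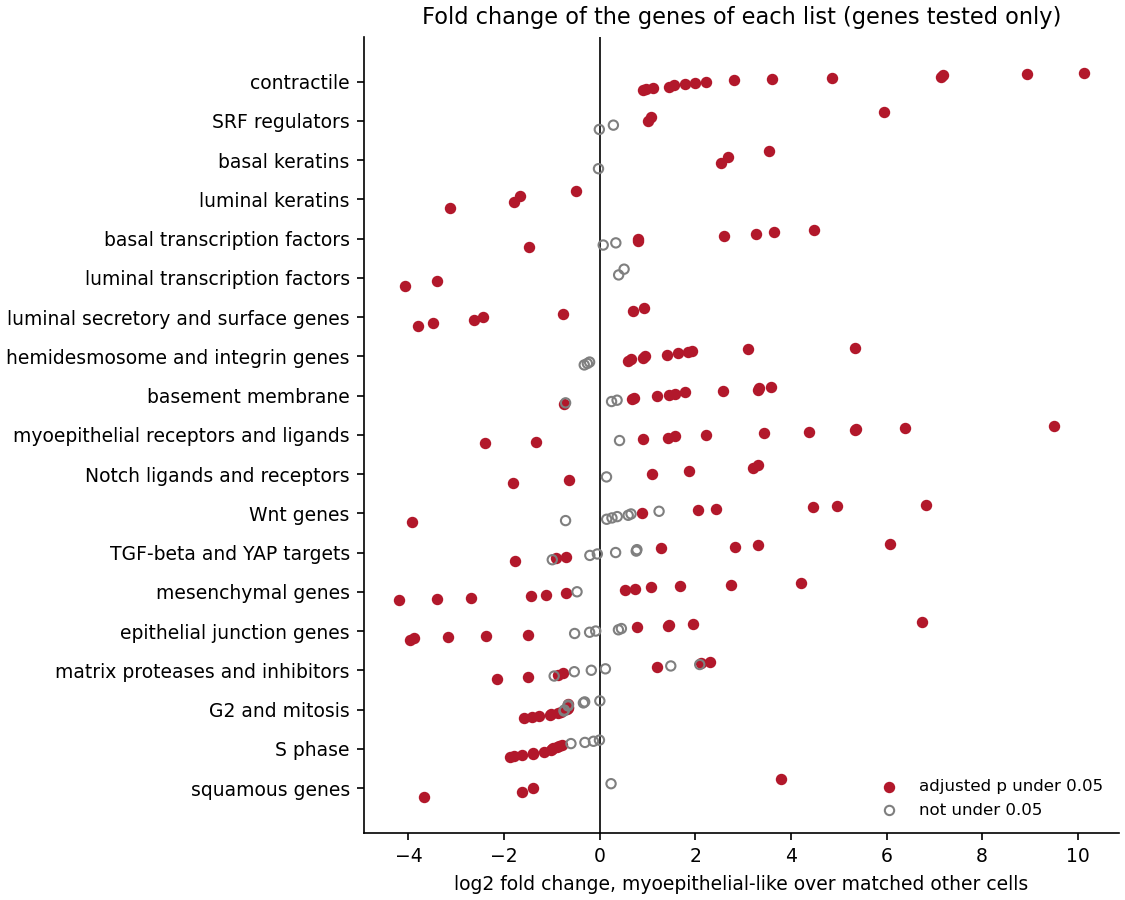
Log2 fold change of myoepithelial-like cells over matched other cells (x axis) for the tested genes of each gene list (rows); filled points passed edgeR's test at an adjusted p under 0.05 and open points did not. All 15 contractile points lie right of 0, all 4 luminal keratins left of it, and the filled points of both proliferation lists left of it.

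By size of change, genes outside the usual myoepithelial lists also stood at the top. The 12 largest rises, taken over called genes that reached 20 CPM and moved 1 way in all mice, were Actg2, Oxtr, Vsnl1, Myh11, Apol11a, Defb1, Apol10b, Brinp1, Myl9, Lmod1, Sostdc1 and Pcsk5. Vsnl1, a neuronal calcium sensor, had 94.8, 81.7 and 123 CPM in members of mice 1, 2 and 3, against 0.687, 0 and 0 CPM in matched others (618 UMIs against 1, ratio 770, exact 95% interval 138 to 30466, counting error only). Sostdc1, a secreted BMP and Wnt antagonist, had 84.7, 111 and 90.3 CPM in members against 1.37, 0.630 and 0 CPM (log2 fold change 7.12). Defb1, an antimicrobial beta-defensin, had 11.9, 16.6 and 65.1 CPM in members and no UMI in matched others (at least 61.1-fold higher), and Apol11a, of the apolipoprotein L family, had 27.1, 21.8 and 11.9 CPM and again none (at least 62.7-fold higher).

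The 12 largest falls by the same rule were Cwh43, Klk6, Nipal1, Mal, Runx3, Shox2, Akr1c18, Casc1, Pglyrp1, Acan, Cdkn2a and Acap1. Cdkn2a, which encodes the cell cycle inhibitors p16Ink4a and p19Arf (chromosome 4, 89274471 to 89294653), was the most abundant of them. It had 11.9, 53.0 and 29.2 CPM in members of mice 1, 2 and 3, against 954, 1227 and 1164 CPM in matched others (log2 fold change -5.15, SE 0.27, edgeR adjusted p = 2.48e-06), and every member value was far below every matched value. Klk6, a secreted serine protease, had 3.39, 1.38 and 2.66 CPM in members against 137, 196 and 103 CPM (-6.37). Runx3, a runt-domain factor, had 0.847, 0.593 and 1.33 CPM in members against 30.9, 42.4 and 85.9 CPM (-5.87), and Acan, the cartilage proteoglycan aggrecan, had 0.847, 3.16 and 0 CPM against 57.7, 85.1 and 101 CPM (-5.16).

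Squamous and protease genes gave mixed counts. Of 5 squamous genes tested, 3 fell (Lypd3, and on the log2 scale Sbsn at -3.68 and Dmkn at -1.62) and Krtdap rose (12.7, 12.3 and 22.6 CPM in members against 2.06, 0.788 and 0 CPM), while 10 others were below the filter. Without mouse 3, 2 of 9 squamous genes rose and 5 fell. Of 13 matrix proteases and inhibitors, 3 rose and 4 fell, and 7 rose and 4 fell without mouse 1 (17 tested) or without mouse 3 (18 tested). Serpinh1, a collagen chaperone, had 539, 564 and 559 CPM in members of mice 1, 2 and 3, against 137, 119 and 79.3 CPM in matched others (2.32), and Plat, the tissue plasminogen activator, fell (-2.16). Mmp3, stromelysin, did not pass (edgeR adjusted p = 0.132) with 2.54, 330 and 27.9 CPM in members against 27.5, 25.2 and 2.20 CPM, and the member value was high in mouse 2 alone.

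Markers of other cell types differed by type: macrophage and endothelial markers were low in both classes, while fibroblast and pericyte markers summed to more in members in each mouse. The 4 markers that passed the filter, Dcn, Mcam, Steap4 and Trbc2, all rose, and their part in the results was not tested. The summed level of 10 macrophage markers was 5.31 to 6.77 CPM in members and 3.30 to 11 CPM in matched others over the 3 mice, with Ptprc, Csf1r, Adgre1 and C1qb at 0 in members. The 6 endothelial markers summed to 0 to 4.23 CPM in members and 0 to 12.6 CPM in matched others, with Cdh5 and Tek at 0 in members. The 10 pericyte markers summed to 46.5 to 111 CPM in members and 21.6 to 33.0 CPM in matched others, with log2 fold changes of 2.72 for Mcam and 1.72 for Steap4. Steap4 did not pass without mouse 1 (adjusted p = 0.0524) or against cells with a Krt5 UMI (0.0896). The 10 fibroblast markers, which hold the rule's Col1a1 and Col3a1, summed to 21.2 to 156 CPM in members and 11 to 16.9 CPM in matched others. Decorin, Dcn, made up most of that in mice 1 and 2 (62.6, 139 and 10.6 CPM in members against 4.81, 3.78 and 0 CPM, log2 fold change 4.83), and Lum was at 0. In Collagen cells alone Dcn did not reach the filter on low counts. At 5000 UMIs Dcn was seen in 8.12% of members and 1.52% of matched others. Among 5 T and NK markers, Trbc2 alone had UMIs in members (76.2, 68.6 and 55.8 CPM, against 20.6, 6.15 and 0 CPM in matched others), and Cd3e, Cd3d, Cd2 and Gzma were at 0. After removal of cells with UMIs of at least 2 of 14 such markers, 1569 genes rose and 1359 fell, and the contractile count was the same.

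A closer comparison sets members against matched cells that also had a Krt5 UMI, of which each member again got 1. It shares its member cells with the comparison above, where 39 of the 197 matched others already had a Krt5 UMI. In mouse 1 the match on depth was looser, with medians of 24966 UMIs in members and 29150 in the matched Krt5 cells. These Krt5 cells held less Krt5 than members, 739, 337 and 62.4 CPM in mice 1, 2 and 3 against 4327, 3963 and 3963 CPM in members. Of 9133 genes tested, 17.3% were higher and 14.8% lower in members by edgeR's test, 32.1% in all. All 15 contractile genes tested rose here as well, all 4 luminal keratins fell, and 7 of 13 hemidesmosome and integrin genes rose. Of 6 luminal secretory and surface genes tested, 1 rose and 2 fell, against 2 and 5 of 7 in the first comparison. Most of the largest values were smaller here. Of the contractile and SRF genes, Actg2 had a log2 fold change of 10.16 in place of 10.14 and Myl9 7.11 in place of 7.18, but Myh11 had 6.88 in place of 8.94, Lmod1 4.23 in place of 7.15 and Nexn 4.63 in place of 5.94. Of the basal genes, Krt14 had 2.51 in place of 2.68, Trp63 2.40 in place of 3.65, Col17a1 2.95 in place of 5.34, Cdh3 3.35 in place of 6.74 and Il17b 4.99 in place of 6.39. Some genes with 0 or 1 UMI in the first matched cells had more in Krt5 cells. Oxtr had 3.27, 1.87 and 0 CPM in the matched Krt5 cells of mice 1, 2 and 3 (log2 fold change 4.16), Vsnl1 had 10.5, 6.08 and 0 CPM (3.91), and Defb1 had 3.12 CPM in mouse 2 and none in the others (3.39). All 3 passed (edgeR adjusted p = 0.000204, 0.00026 and 0.00297). The matched Krt5 cells had 102, 36.0 and 4.31 CPM of Col17a1 and 69.3, 20.4 and 11.8 CPM of Trp63 in mice 1, 2 and 3. Cdkn2a had a log2 fold change of -4.87, at 822, 1038 and 838 CPM in the matched Krt5 cells. Krtdap (0.35, adjusted p = 0.768) and Adamts1 (1.20, adjusted p = 0.255) did not pass in this comparison, and neither did Fst (0.27, adjusted p = 0.472) and Fzd7 (0.32, adjusted p = 0.32).

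Days 5 and 3 were compared over mice 1, 2 and 3, with 6, 34 and 9 members on day 5 and 26, 97 and 7 on day 3. The minimum was 5 members a mouse and day, chosen after seeing the data. Of 6617 genes tested, 55 were higher (0.831%) and 70 lower (1.06%) on day 5, 1.89% in all, by edgeR's test with the mouse as a block, and the day cannot be told apart from the pool. DESeq2 gave 26 and 47. Of 176 list genes tested, 12 were called, 8 higher and 4 lower, against 125 of 6617 over all genes. Of these 12, 4 are given here, named after their values were seen. Lcn2 had 471, 315 and 690 CPM in day 5 members of mice 1, 2 and 3, against 2095, 1187 and 1084 CPM in day 3 members (log2 fold change -1.57, SE 0.23, edgeR adjusted p = 0.00549), and it passed without each mouse. Myh11 had 117, 145 and 93.0 CPM on day 5 and 241, 212 and 267 CPM on day 3 (-0.95, adjusted p = 0.0262), but it did not pass without mouse 1 (0.148) or without mouse 3 (0.078). It was the 1 contractile gene of 15 that was called.

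Col17a1 had 568, 381 and 308 CPM in members on day 5, against 275, 226 and 247 CPM on day 3 (log2 fold change 0.74, edgeR adjusted p = 0.035), and it did not pass without mouse 1 (0.363), without mouse 2 (0.144) or with DESeq2 (0.0789). Sox9 had 339, 278 and 196 CPM on day 5 and 126, 136 and 113 CPM on day 3 (1.11, adjusted p = 0.00564), and did not pass without mouse 1 (0.0801). For each of these 4 genes the values of the 2 days did not overlap. No gene of the G2 and mitosis or S phase lists was called, of 18 and 14 tested. The difference between members and matched others was then compared between the days. Of 8080 genes, 1 had a larger difference on day 5 (0.0124%) and none a smaller one by edgeR's test with the culture as a block. At an unadjusted p under 0.05 there were 316 genes, and DESeq2 called 2 larger and 2 smaller. The 1 gene was BC100530, with 798, 157 and 231 CPM in members and 28.2, 0.818 and 1.62 CPM in matched others on day 5. On day 3 it had 75.7, 13.5 and 4.04 CPM in members and 83.4, 142 and 3.45 CPM in matched others (log2 difference 7.85, SE 0.93, edgeR adjusted p = 0.0188). It did not pass without mouse 2 (adjusted p = 0.0772), without the culture block (0.398) or against all other Epcam-positive cells (0.815). For none of the 4 genes above was this difference between the days past the threshold (edgeR adjusted p = 0.505 for Lcn2 and 1 for the others).

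The matrices were not tested within members, since no Matrigel culture held more than 2 of them, and day 0, with at least 5 members in 2 mice, was not tested either. Their values are given as description, for cultures of at least 10 members, in CPM of unscaled totals with exact Poisson intervals for counting error only. Myl9 had 357 (278 to 450) in 10 day 0 Collagen members of mouse 1, 386 (344 to 431) in 25 day 3 members of mouse 1, 424 (402 to 446) in 95 day 3 members of mouse 2, and 643 (609 to 677) in 34 day 5 members of mouse 2. In the 7 Matrigel members, pooled over mice and over days 0 and 3, it had 124 (83.2 to 178). Myh11 had 158, 213, 187 and 137 in the same 4 Collagen cultures and 81.4 (49.0 to 127) in the Matrigel members. Col17a1, at 204, 231, 201 and 362 in Collagen and 206 (152 to 273) in Matrigel members, and Trp63, at 127, 194, 118 and 87.4 in Collagen and 124 (83.2 to 178) in Matrigel members, overlapped between the matrices.

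Postn had 300, 733, 694 and 740 CPM in members of the 4 Collagen cultures, in the same order, and 17.1 (4.67 to 43.9) in the 7 Matrigel members, where it rests on 4 UMIs. Ctgf had 321, 234, 224 and 362 in Collagen members and 72.8 (42.4 to 117) in Matrigel members, and Il17b had 326, 445, 530 and 348 in Collagen members and 81.4 (49.0 to 127) in Matrigel members. Krt14 had 2929 in the day 0 members and 6353 to 8711 in those of days 3 and 5. Lcn2 went the other way along the days, with 7110 in day 0 members of mouse 1, 1865 and 1061 in day 3 members of mice 1 and 2, and 299 in day 5 members of mouse 2. In matched others Lcn2 had 1405, 1476, 644 and 349 in the same cultures. The 4 day 0 Collagen members of mouse 2, however, had 1918 CPM of Lcn2 against 4161 in their matched others. Mcm6 had 5.09 (0.129 to 28.4) in day 0 members, 55.5 and 68.5 in day 3 members and 97.2 in day 5 members, against 306, 181, 227 and 295 in their matched others. Members were below their matched cells for Mcm6 in all 4 cultures, while the 7 Matrigel members, at 141 (97.3 to 199), overlapped with theirs at 187 (136 to 250).

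**Figure D5:**
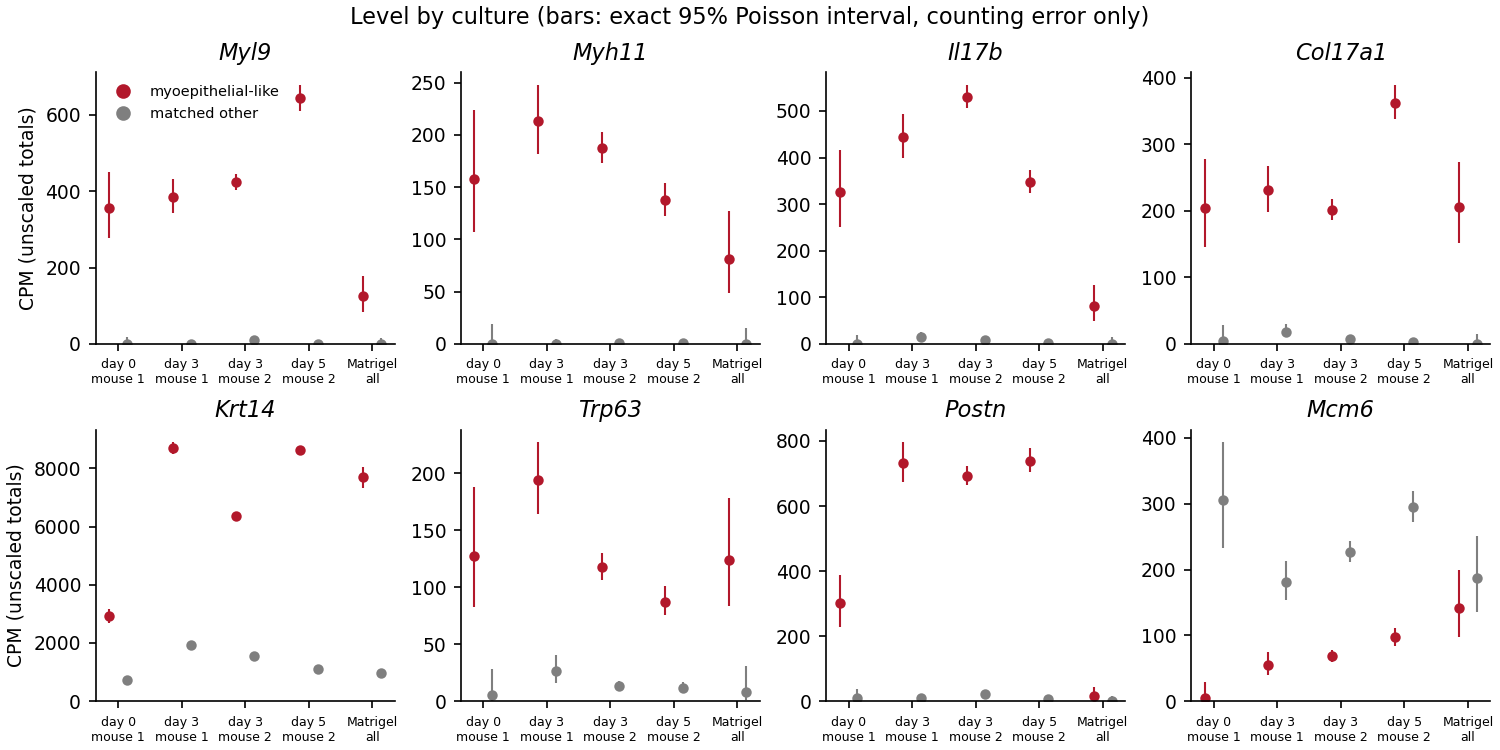
Unscaled CPM (y axis) of 8 genes in myoepithelial-like (red) and matched other cells (grey) of the 4 Collagen cultures with at least 10 members and of all 7 Matrigel members (x axis); bars are exact 95% Poisson intervals for counting error only. Postn has 300 or more in each Collagen culture and 17.1 in Matrigel members, while Col17a1 and Trp63 overlap between them.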

How the data were processed

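The deposited matrix holds UMI counts per gene and cell (20605 genes), made by the authors; Cell Ranger 3.0.2, Scanpy 1.4.4 and GRCm38/mm10 are named, with no roles, in the submitters' processing notes. Cells were barcoded by mouse and matrix with MULTI-seq, sorted as live with propidium iodide and, per the labels' protocols, run with the 10x 3' v2 kit. The deposited cell annotation gives each cell's day, mouse, matrix and mitochondrial fraction of counts (at most 9.99%). Its time point D1 was taken as day 0, an inference. There were 0 columns of per-sample values left unused. Members and gene lists were chosen with earlier results of these data known.

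Every cell of at least 5000 UMIs was gated. Counts of 1:1 matched cells were summed per mouse and tested with edgeR 4.0.16 (limma 3.58.1, R 4.3.3; TMM, filterByExpr, quasi-likelihood F test, mouse as a block, 3 mice, 9043 genes, common dispersion 0.0230, Benjamini-Hochberg). The rule's genes and Epcam were left out of the fit. The effective totals ran from 753200 to 6346030 UMIs. The pairing comes from the design, since both classes of a mouse come from the same cultures. Immune marker cells, used as a background for detection, were other cells of the pools. Named genes were the 12 highest and 12 lowest called fold changes of at least 20 CPM and 1 direction in all mice, without predicted, mitochondrial and ribosomal protein genes, the markers, and up to 6 called genes of each list by smallest p; list genes beyond these were named after their values were seen. Some genes are not reported here. No doublet caller was run. Mouse shares were set against each other by exact two-sided permutation after thinning to 5000 UMIs, in cultures of at least 20 cells. Coordinates are from GENCODE vM21 (20574 of 20605 identifiers matched). Alternatives were DESeq2 1.42.0, other filters, gates, depths, references and scalings, and each mouse left out; Collagen cells only, day 3 cells only, no scaling and the edgeR fits of day 5 against day 3 (at least 5 members a mouse and day) were added after seeing the data. Python 3.11.15 with NumPy 2.4.6, SciPy 1.17.1, pandas 2.3.3 and matplotlib 3.10.9 was used. The script for the fit was tested on simulated data.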

Additional observations from a re-analysis of the deposited data

Results flagged for a closer look

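The share of myoepithelial-like cells in the Matrigel culture of mouse 1 on day 3 was 2.33%, against 0% in the other 3 mice of that group. It passed the 95% limit of Dixon's test, but with the other 3 values tied at 0 that test passes for any share above 0, so it says nothing about how far the value stands apart. The share rests on 1 of 43 cells (exact 95% interval 0.0589 to 12.3%, counting error only). Without thinning, the shares of mice 1, 2, 3 and 4 were 2.17%, 1.36%, 0.962% and 0%.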

How the results depend on the processing

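Of 123 named genes followed through 16 alternatives, in which 113 to 123 of them had a value, 1 was seen to change direction: Serpine2, in day 3 cells only (0.10, adjusted p = 0.753 against -0.76 in the fit reported), where 113 had a value. Leaving out each mouse gave 881 to 2229 higher and 589 to 1934 lower genes. The lowest counts came without mouse 2, with 854 and 562 of them among the 1712 and 1448 genes reported, and 13 named genes no longer passed. DESeq2 gave 1144 higher and 706 lower genes, all among those reported. All other Epcam-positive cells as the reference gave 2417 higher and 2643 lower genes. Without TMM scaling the median of all genes was -0.31 in place of -0.02, and 1055 genes were higher and 2898 lower (26.7% of calls higher in place of 54.2%). Without the replicate block for the mouse, 1642 genes were higher and 1372 lower. With each mouse left out, the share difference, Collagen minus Matrigel, was 0.443 to 1.26 percentage points on day 0, 1.92 to 4.25 on day 3 and 3.82 to 8.23 on day 5. On day 5 leaving out mouse 2 or 3 left 1 Matrigel culture. With the stricter gate the difference was 2.17 on day 3 (exact permutation p = 0.0286, not adjusted over the 3 days). Paired by mouse, the replicate block, it was 0.945, 3.42 and 5.72 on days 0, 3 and 5 (exact permutation p = 0.5, 0.125 and 0.5). On days 3 and 5 these are the smallest p that 4 and 2 pairs allow. Between days 5 and 3, members had 21 to 96 higher and 36 to 129 lower genes with each mouse left out (55 and 70 reported; the most without mouse 3), 26 higher with DESeq2, and 128 and 194 with no filter on low counts. For the member against other difference, leaving out each mouse gave 0 to 7 larger and 0 to 8 smaller genes (1 and 0 reported), DESeq2 2 and 2, no filter 35 and 45, and neither the fit with no replicate block nor that with unmatched cells called any (0 and 0). Contrasts of the matrices within members were not run. The cause of these changes was not tested. In the smallest Matrigel culture with a share, a count of 0 allows up to 8.57%.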
